A study of Homo sapiens with 6 samples.

Results

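The genes described here are 53 heat shock and endoplasmic reticulum (ER) chaperone genes, chosen by symbol from the 60569 gene names of the deposited table. They cover the cytosolic HSP70, HSP90 and HSP40 families, small heat shock proteins, the CCT chaperonin, mitochondrial chaperones, ER chaperones and the machinery of ER-associated degradation (ERAD), and all 53 symbols were found. The RNA came from MDA-MB-453 cells, a human breast cancer line of luminal apocrine character, transfected either with a control vector (3 libraries, called controls) or with a ZNF207-overexpression construct (3 libraries, called ZNF207 libraries), all independent biological replicates per the series' design text. ZNF207 is a microtubule-binding zinc finger protein and a partner of the checkpoint protein BUB3. Both groups were transfected, and the time between transfection and harvest is not given in the sources used here. A single line was used, so the values describe this line. Values are FPKM, fragments scaled to transcript length and to the mapped fragments of the library, and read depth is unknown.

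Chaperones bind unfolded protein and release it in cycles driven by ATP. In the cytosol HSP70 works with J-domain proteins (the DNAJ or HSP40 family), which bring it substrates and stimulate its ATPase, and with nucleotide exchange factors, which reset it, and it hands clients on to HSP90. The heat shock factor HSF1 raises the transcription of many of these genes when unfolded protein builds up, by binding heat shock elements. In the ER the HSP70 protein BiP (HSPA5) holds folding proteins and the stress sensors IRE1 (ERN1) and ATF6, and sensor activation induces ER chaperones and ERAD genes through ER stress response elements, the unfolded protein response (UPR). ERAD carries misfolded protein back to the cytosol for the proteasome, and secretory epithelial cells such as those of the breast depend on both systems.

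The 6 promoters are shown because they hold the response elements through which these programmes are known to act, in members with larger and with smaller differences between the groups. Each runs from 250 bases before to 20 bases after the RefSeq gene start on GRCh38.p14, 5′ to 3′ on the gene's strand. The capitals mark matches to 4 motifs, each searched on both strands. They are CCAAT and CCACG with 9 bases between them (the ER stress response element, ERSE), ATTGG and CCACG with 1 base between them (ERSE-II), TGACGTGG (the core of the UPR element, UPRE), and GAA, TTC and GAA with 2 bases between neighbours (3 units of a heat shock element, HSE). The HSPA5 window is chr9:125241324-125241593, minus strand, that of HSP90B1 is chr12:103930160-103930429, plus strand, and that of HYOU1 is chr11:119057186-119057455, minus strand. The HERPUD1 window is chr16:56931892-56932161, plus strand, that of HSPA8 is chr11:123062117-123062386, minus strand, and that of DNAJA1 is chr9:33025023-33025292, plus strand.
HSPA5: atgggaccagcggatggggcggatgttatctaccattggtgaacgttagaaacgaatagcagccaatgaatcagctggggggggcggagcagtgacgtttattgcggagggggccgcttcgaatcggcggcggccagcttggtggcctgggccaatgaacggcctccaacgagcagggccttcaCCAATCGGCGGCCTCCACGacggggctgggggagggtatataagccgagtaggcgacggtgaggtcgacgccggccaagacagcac
HSP90B1: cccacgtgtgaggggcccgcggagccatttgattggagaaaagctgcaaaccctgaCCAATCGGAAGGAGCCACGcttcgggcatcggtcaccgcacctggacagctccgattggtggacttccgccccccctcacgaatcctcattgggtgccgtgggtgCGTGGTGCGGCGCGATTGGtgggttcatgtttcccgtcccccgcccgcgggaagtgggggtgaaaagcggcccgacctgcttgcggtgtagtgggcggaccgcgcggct
HYOU1: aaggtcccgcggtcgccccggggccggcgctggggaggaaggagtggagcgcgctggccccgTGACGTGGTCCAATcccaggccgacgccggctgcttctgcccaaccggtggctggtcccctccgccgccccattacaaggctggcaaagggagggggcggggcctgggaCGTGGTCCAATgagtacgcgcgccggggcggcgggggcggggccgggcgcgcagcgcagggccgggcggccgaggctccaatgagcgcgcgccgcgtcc
HERPUD1: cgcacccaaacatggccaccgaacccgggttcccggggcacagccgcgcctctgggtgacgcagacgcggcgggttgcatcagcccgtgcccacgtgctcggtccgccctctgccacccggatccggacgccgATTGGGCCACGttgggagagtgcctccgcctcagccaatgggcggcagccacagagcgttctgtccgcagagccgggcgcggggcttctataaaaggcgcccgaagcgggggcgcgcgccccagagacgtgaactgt
HSPA8: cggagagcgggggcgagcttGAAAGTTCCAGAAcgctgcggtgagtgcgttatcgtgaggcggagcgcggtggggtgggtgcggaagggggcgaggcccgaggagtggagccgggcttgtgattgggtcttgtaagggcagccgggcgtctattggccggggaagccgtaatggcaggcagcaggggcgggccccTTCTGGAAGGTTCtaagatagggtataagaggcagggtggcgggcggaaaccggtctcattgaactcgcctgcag
DNAJA1: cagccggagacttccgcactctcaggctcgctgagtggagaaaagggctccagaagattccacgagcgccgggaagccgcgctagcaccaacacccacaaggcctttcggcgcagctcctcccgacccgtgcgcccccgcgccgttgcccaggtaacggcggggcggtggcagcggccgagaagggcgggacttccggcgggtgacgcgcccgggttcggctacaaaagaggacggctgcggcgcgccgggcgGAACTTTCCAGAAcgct

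The HSPA5 promoter held 1 exact match to the ERSE letters, at bases -66 to -48 from the start, and HSP90B1 held 2, 1 on each strand. Elements that depart from these letters were not searched for, so the matches are no full count of elements. In HYOU1 there were 2 ERSE-II matches, and the UPRE core overlapped the one farther from the start. HERPUD1 carried an ERSE-II at bases -117 to -107. HSPA8 had 2 HSE matches, and the match in DNAJA1 lay just after the start, at bases 4 to 16.

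Series-wide values bear on all that follows. The ZNF207 transcript itself averaged 66.6 ± 2.78 FPKM in controls against 807 ± 69.9 FPKM in ZNF207 libraries (SD, n = 3 per group), with a log2 change of 3.58 (limma adjusted p = 4.03e-09, exact two-sided permutation p = 0.1, the smallest that 3 against 3 libraries allow). All 8 luminal and epithelial markers of the line were measured, with summed FPKM of 5070 to 5240 in controls and 4930 to 4970 in ZNF207 libraries. Basal, leukocyte and endothelial marker lists summed to at most 1.41 FPKM in any library. The fibroblast list summed to 9.04 to 11.6 FPKM in controls and 8.13 to 10.3 FPKM in ZNF207 libraries, nearly all of it COL1A1. The leukocyte genes PTPRC and CD3E were listed at 0 in every control, and the part of any marker list in the results was not tested. Genes were tested with limma on log2(FPKM + 1) where FPKM reached 1 in at least 3 libraries, which took in 13185 genes, of which 28 (0.212%) passed an adjusted p of 0.05. The log2 change is overexpression minus control on this scale, which understates the change of low genes, and brackets after it give its 95% interval.

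Of the 53 chaperone genes, 51 were tested and 0 passed the adjusted threshold. In simulated data only 10% of 50 genes with a log2 change of 0.25 passed it, so not passing does not show equal levels. Those genes were drawn at random from expressed genes and not matched to the members, so the share for the members can differ. At an unadjusted p under 0.05 there were 8 with a higher mean in ZNF207 libraries (15.7% of 51, against 5.08% of all tested genes) and 1 with a lower mean (1.96%, against 7.03%). The 8 were DNAJB9, HYOU1, HSPA5 and DNAJB11 of the ER chaperones, HERPUD1 of ERAD, and HSPH1, HSPA4 and DNAJA1 of the cytosol, and the 1 lower was the J protein gene DNAJB2. Estimates were above 0 for 40 of the 51 (78.4%, against 47.6% of all tested genes), and the median log2 change was 0.06, against -0.01 over all tested genes. All 3 ZNF207 libraries lay above all 3 controls for 14 members (27.5%, against 7.61% of all genes) and below them for 2 (3.92%, against 10.4%). The members were chosen with earlier results of these data known, so such shares, here and by role, are no test. The count of 8 was 15 after rescaling to TPM and 14 with median-of-ratios or quantile scaling. Without control replicate 2 the number of estimates above 0 was 33, and without overexpression replicate 3 it was 32. The shares of all tested genes under these other settings were not counted, so these counts have no background beside them.

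**Figure D1:**
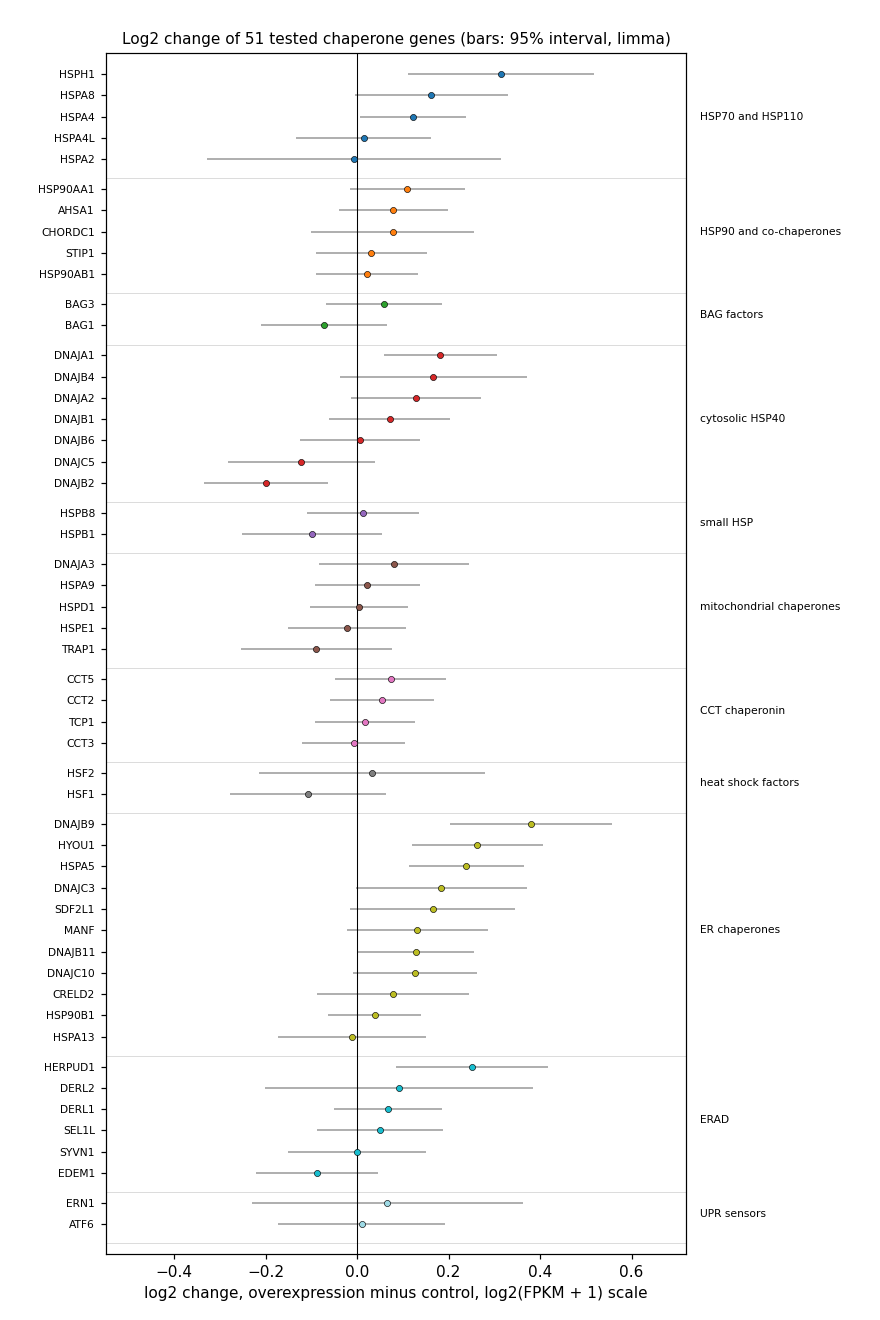
Log2 change (horizontal axis, overexpression minus control on the log2(FPKM + 1) scale) of each of the 51 tested genes, grouped by role, with bars for the 95% interval from limma. The highest point is DNAJB9 at 0.38 and the lowest is DNAJB2 at -0.20, and most ER chaperone genes lie to the right of 0.

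Of the 11 ER chaperone genes, 10 had estimates above 0 (90.9%, against 47.6% of all tested genes). At an unadjusted p under 0.05, 4 were higher (36.4%, against 5.08%), and 0 passed the adjusted threshold. In 6 the ZNF207 libraries all lay above the controls (54.5%, against 7.61%). The median log2 change of the 11 genes was 0.13, beside 0.12 for the cytosolic HSP70 and HSP110 genes, and differences between roles were not tested. Summed over the 11 genes, FPKM came to 857.1, 864.5 and 892.5 in the controls and to 948.2, 953.2 and 995.2 in the ZNF207 libraries, so the groups did not overlap.

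DNAJB9 (chromosome 7, 108569568 to 108574850, plus strand, GRCh38) encodes ERdj4, a J protein of the ER lumen that is an IRE1 pathway target and guides BiP to IRE1. It stood at 66.3, 69.9 and 75.4 FPKM across the controls and 85.99, 87.84 and 103 FPKM in the ZNF207 libraries. Every overexpression library was above every control, with replicate 3 at the top. The ratio of means was 1.31, with a log2 change of 0.38 (0.20 to 0.56) and an adjusted p of 0.0958. HSPA5 (chromosome 9, 125234853 to 125241330, minus strand) encodes BiP and is the standard readout of ER stress. Its controls were at 163.6, 157.3 and 172.5 FPKM and its ZNF207 libraries at 192.3, 187.0 and 203.4 FPKM. The groups did not overlap, the ratio of means was 1.18, and the log2 change was 0.24 (0.11 to 0.36, adjusted p = 0.127).

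HYOU1 (chromosome 11, 119044189 to 119057202, minus strand) encodes GRP170, an HSP110 relative that acts as an exchange factor for BiP. Its FPKM was 45.1, 44.8 and 47.7 in the controls against 54.0, 52.4 and 59.5 in the ZNF207 libraries, again without overlap. The log2 change was 0.26 (0.12 to 0.41, adjusted p = 0.134). The other members of this role that work with BiP had smaller estimates. DNAJB11 (ERdj3), which is secreted together with misfolded clients, had means of 68.2 ± 2.37 and 74.7 ± 3.30 FPKM in controls and ZNF207 libraries, with unadjusted p = 0.0464 and adjusted p = 0.402. DNAJC3 (p58IPK, an inhibitor of the kinase PERK) had a log2 change of 0.18, the reductase DNAJC10 (ERdj5) had 0.13, SDF2L1, which forms a complex with ERdj3, had 0.17, and the secreted stress protein MANF had 0.13, with adjusted p-values from 0.418 to 0.488.

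The abundant ER HSP90, HSP90B1 (GRP94), which folds receptors and integrins, differed little although its promoter holds 2 ERSE matches. It stood at 320.6, 317.6 and 312.1 FPKM across the controls and 324.1, 330.3 and 321.6 FPKM in the ZNF207 libraries. These did not overlap, but the means were 1.03-fold apart, with a log2 change of 0.04 (-0.06 to 0.14, adjusted p = 0.79). CRELD2, a UPR-induced isomerase, had a log2 change of 0.08 (adjusted p = 0.719). HSPA13, an HSP70-like ATPase of microsomes, was the 1 ER chaperone gene below 0, at -0.01 (-0.17 to 0.15).

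**Figure D2:**
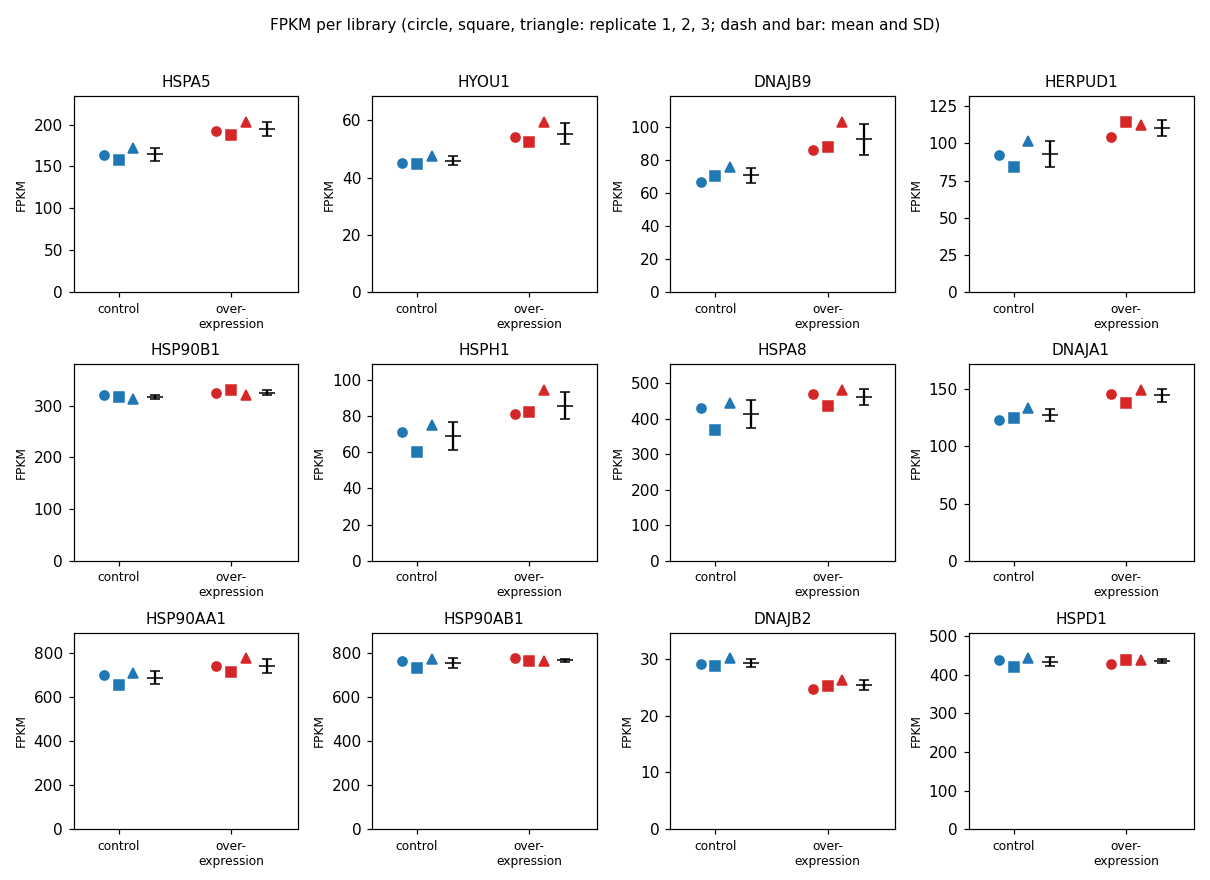
FPKM (vertical axis, from 0) of 12 members in each library, with controls in blue and ZNF207 libraries in red, and the mean and SD (n = 3) to the right of each group. HSPA5, HYOU1, DNAJB9, HERPUD1, HSPH1, DNAJA1, HSP90B1 and HSP90AA1 show groups that do not overlap with the ZNF207 libraries above, and DNAJB2 shows them below. HSPA8, HSP90AB1 and HSPD1 show overlapping groups, those of HSPD1 at about 435 FPKM.

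Among 6 ERAD genes, 5 had estimates above 0 (83.3%, against 47.6% of all tested genes) and 0 passed the adjusted threshold, with a median log2 change of 0.06. HERPUD1 (chromosome 16, 56932048 to 56944863, plus strand) encodes a membrane protein that assembles the HRD1 ubiquitin ligase complex. Its values were 92.0, 84.1 and 101.8 FPKM across the controls and 104.1, 114.5 and 112.1 FPKM in the ZNF207 libraries, so the highest control lay close to the lowest overexpression library. The log2 change was 0.25 (0.09 to 0.42, adjusted p = 0.216). Estimates for the core of the same complex were near 0. SEL1L, the scaffold of that ligase, stood at 51.5, 49.2 and 51.8 FPKM across the controls and 50.6, 51.1 and 56.5 FPKM in the ZNF207 libraries (log2 change 0.05, -0.09 to 0.19), and its estimate was -2e-04 without overexpression replicate 3. SYVN1, the HRD1 ligase itself, had means of 31.8 and 31.8 FPKM and a log2 change of 0.00 (-0.15 to 0.15). Of the derlins, channel proteins of the ER membrane, DERL1 had 0.07 and DERL2 had 0.09, the latter with controls from 20.4 to 30.6 FPKM. EDEM1, a mannosidase-like lectin that marks glycoproteins for ERAD, was the 1 member of this role below 0, at -0.09 (-0.22 to 0.05), with every overexpression library below every control.

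The sensors were low and showed no difference beyond their spread. ERN1 stood at 5.61, 5.54 and 5.20 FPKM across the controls and 5.67, 4.70 and 7.07 FPKM in the ZNF207 libraries, which bracketed the controls (log2 change 0.07, -0.23 to 0.36, adjusted p = 0.885, and -0.06 without overexpression replicate 3). ATF6 stood at 12.9, 12 and 13.1 FPKM against 12.3, 12.2 and 13.8 FPKM (log2 change 0.01, -0.17 to 0.19, adjusted p = 0.974), and its sign changed with array weights, without control replicate 2 and without overexpression replicate 3. Both sensors are activated at the protein level, by oligomer formation and by cleavage, which transcript levels do not measure.

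In the cytosolic HSP70 and HSP110 role, 5 of 7 members were tested. Estimates were above 0 for 4 of these 5, against 47.6% of all tested genes. Of the same 5, 2 were higher at an unadjusted p under 0.05, against 5.08% of all tested genes. The stress-inducible HSP70 genes HSPA1A and HSPA1B were near 0 in every library. HSPA1A was listed at 0.0995, 0.0202 and 0.0541 FPKM across the controls and 0, 0.114 and 0.0183 FPKM in the ZNF207 libraries, and HSPA1B at 0.0275 FPKM in control replicate 3 and at 0 in the other 5. Neither gene was tested, since neither reached an FPKM of 1 in at least 3 libraries. These 2 genes lie near each other on chromosome 6, and their transcripts were 98.6% identical over 2152 bases, so their values are uncertain. HSPA6, another strictly inducible HSP70 and no member of the list, was listed between 0.863 and 1.44 FPKM.

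HSPH1 (chromosome 13, 31134974 to 31162388, minus strand), an HSP110 protein and exchange factor for HSP70, had the largest difference of the cytosol. Its FPKM was 71.3, 60.3 and 75.4 in the controls and 81.1, 82.2 and 94.6 in the ZNF207 libraries. The groups did not overlap, with control replicate 2 lowest and overexpression replicate 3 highest. The log2 change was 0.31 (0.11 to 0.52, adjusted p = 0.206). Its relative HSPA4, an exchange factor of the same family, had means of 81.5 ± 0.730 and 88.8 ± 3.46 FPKM (log2 change 0.12, unadjusted p = 0.0399, adjusted p = 0.382), while HSPA4L, another of that family, had 0.01.

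HSPA8, the constitutive HSP70 that also uncoats clathrin vesicles, was the most abundant HSP70 transcript. It stood at 430.9, 368.9 and 443.2 FPKM across the controls and 469.6, 437.3 and 481.0 FPKM in the ZNF207 libraries, and the groups overlapped at control replicate 3. The log2 change was 0.16 (-0.01 to 0.33, adjusted p = 0.427). It was 0.08 without control replicate 2, the lowest library. HSPA2, a testis-enriched HSP70, was the least abundant tested member, at 1.95 ± 0.237 and 1.94 ± 0.296 FPKM.

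All 5 genes of HSP90 and its co-chaperones had estimates above 0 (against 47.6% of all tested genes). At an unadjusted p under 0.05 there were 0 of them, against 5.08% higher and 7.03% lower of all tested genes. HSP90AA1, the inducible cytosolic HSP90, stood at 699.0, 654.5 and 707.8 FPKM across the controls and 738.8, 711.7 and 774.2 FPKM in the ZNF207 libraries, without overlap (log2 change 0.11, -0.02 to 0.24, adjusted p = 0.475, and 0.19 with quantile scaling). The constitutive form HSP90AB1 stood at 762.7, 729.0 and 771.1 FPKM against 773.1, 760.4 and 762.9 FPKM, and the groups overlapped (log2 change 0.02, -0.09 to 0.13). The sign of the HSP90AB1 estimate changed without control replicate 2. Of the co-chaperones, AHSA1, which stimulates the HSP90 ATPase, had 0.08 with groups that did not overlap, CHORDC1 had 0.08, and STIP1 (HOP), which bridges HSP70 and HSP90, had 0.03. HSP90AA1 and HSP90AB1 each match a pseudogene at 97.1% identity over 2199 and 2175 bases, so reads could be shared.

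Of the 7 cytosolic J proteins, 5 had estimates above 0 (71.4%, against 47.6% of all tested genes) and 2 below. DNAJA1 (chromosome 9, 33025211 to 33039907, plus strand), a farnesylated HSP40, stood at 123.4, 125.1 and 133.7 FPKM across the controls and 146.2, 138.4 and 149.3 FPKM in the ZNF207 libraries, without overlap (log2 change 0.18, 0.06 to 0.31, adjusted p = 0.23). DNAJB2 (chromosome 2, 219279267 to 219286900, plus strand), a J protein with ubiquitin-interacting motifs that sends clients to the proteasome, was the lowest of all members by log2 change. It stood at 29.1, 28.8 and 30.1 FPKM across the controls and 24.7, 25.3 and 26.4 FPKM in the ZNF207 libraries, every one below every control. Its log2 change was -0.20 (-0.34 to -0.06, adjusted p = 0.23). Neither J protein passed the adjusted threshold.

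DNAJB1, the main heat-inducible HSP40, stood at 97.1, 93.1 and 104.4 FPKM against 100.2, 101.5 and 107.6 FPKM, with overlap (log2 change 0.07, -0.06 to 0.20, adjusted p = 0.682, and between 0.03 without control replicate 2 and 0.12 without control replicate 3). DNAJC5, the cysteine string protein of secretory vesicles, was among the 3 lowest members, at 30.7, 36.0 and 34.3 FPKM across the controls and 31.1, 29.7 and 31.6 FPKM in the ZNF207 libraries, with overlap (log2 change -0.12, adjusted p = 0.538, but -0.19 without control replicate 1 and -0.07 without control replicate 2). DNAJA2 had 0.13 with groups that did not overlap, DNAJB4 had 0.17 and DNAJB6, a suppressor of aggregation, had 0.01. Of the exchange factors, BAG1 stood at 80.4, 91.7 and 82.3 FPKM against 81.8, 78.35 and 81.3 FPKM, with overlap (log2 change -0.07, adjusted p = 0.685, but -0.11 without control replicate 1 and -0.02 without control replicate 2), and BAG3, an HSF1 target that directs aggregates to autophagy, had 0.06 (-0.07 to 0.19).

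The small heat shock protein HSPB1 (HSP27), which holds unfolded protein without ATP, was the most abundant chaperone transcript. It stood at 2725, 2587 and 2485 FPKM across the controls and 2254, 2471 and 2562 FPKM in the ZNF207 libraries, with overlap (log2 change -0.10, -0.25 to 0.05, adjusted p = 0.61, but -0.06 without control replicate 1 and -0.05 either without overexpression replicate 1 or with quantile scaling). HSPB8, the partner of BAG3, was at 121.5 ± 6.75 and 122.5 ± 0.691 FPKM. HSF1, which governs the heat shock genes, stood at 38.3, 44.9 and 44.2 FPKM against 36.9, 39.6 and 41.45 FPKM, with overlap (log2 change -0.11, -0.28 to 0.06, adjusted p = 0.624, but with 1 library left out -0.18 for control replicate 1, -0.07 for control replicate 2 and -0.06 for overexpression replicate 1), and HSF2, a related factor, at 7.015 ± 0.571 and 7.22 ± 0.932 FPKM.

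Estimates for the mitochondrial chaperones and the CCT chaperonin lay close to 0. At an unadjusted p under 0.05 there were 0 of 9, against 5.08% higher and 7.03% lower of all tested genes. With 9 genes a count of 0 is near these shares. HSPD1 (HSP60), the folding chamber of the matrix, stood at 438.4, 421.2 and 442.7 FPKM across the controls and 428.9, 437.7 and 438.8 FPKM in the ZNF207 libraries (log2 change 0.00, -0.10 to 0.11, adjusted p = 0.984). The groups overlapped, and the sign of the estimate changed when control replicate 2 or either of overexpression replicates 2 and 3 was left out. HSPE1 (HSP10), its lid, had -0.02, the matrix HSP70 HSPA9 had 0.02, and the J protein DNAJA3 had 0.08. TRAP1, the mitochondrial HSP90, stood at 60.9, 59.0 and 53.55 FPKM against 57.0, 56.3 and 49.6 FPKM, with overlap (log2 change -0.09, -0.25 to 0.08, adjusted p = 0.678, but with 1 library left out -0.05 for control replicate 1, -0.14 for control replicate 3 and -0.03 for overexpression replicate 3). The 4 CCT subunits, parts of the ring that folds actin and tubulin, had log2 changes between -0.01 and 0.07. Of them CCT5 had the smallest p, with 175.8, 163.0 and 176.4 FPKM across the controls and 177.8, 188.0 and 176.5 FPKM in the ZNF207 libraries, where the nearest pair all but met (log2 change 0.07, adjusted p = 0.635, but 0.04 when control replicate 2 and 0.05 when overexpression replicate 2 was left out), while CCT2, CCT3 and TCP1 overlapped between the groups.

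**Figure D3:**
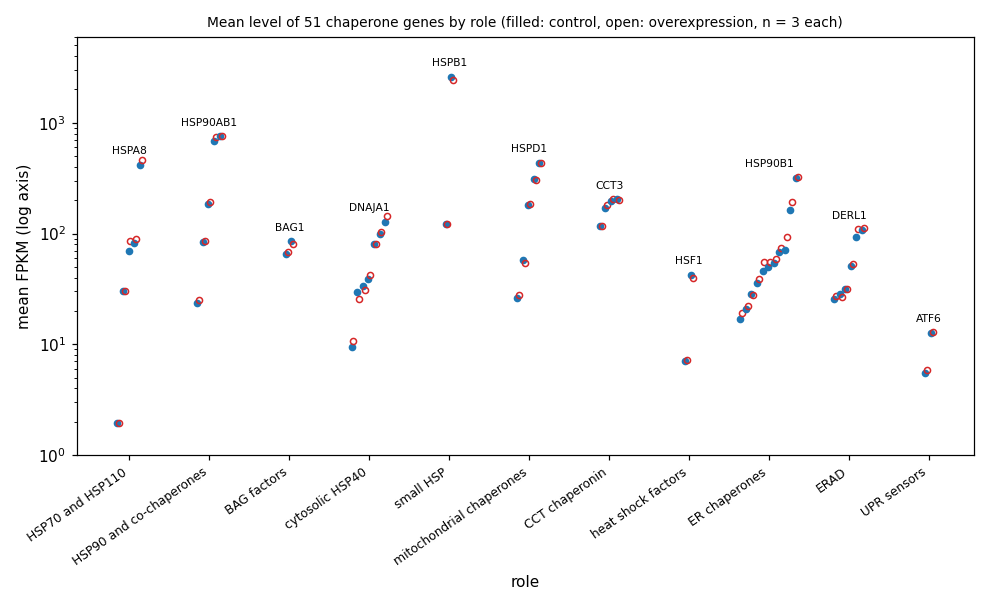
Mean FPKM (log axis) of the 51 tested genes by role, with filled blue points for controls and open red points for ZNF207 libraries (n = 3 each), and the name of the gene with the highest control mean in each role. HSPB1 at 2599 FPKM in controls stands highest, and HSPA2 at 1.95 FPKM stands lowest.

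FPKM is scaled to length, so levels can be set beside each other between genes. In controls the order ran from HSPB1 (2599 FPKM) through HSP90AB1 (754.2 FPKM), HSP90AA1 (687.1 FPKM), HSPD1 (434.1 FPKM) and HSPA8 (414.3 FPKM) to HSP90B1 (316.8 FPKM) and HSPE1 (310.7 FPKM). Controls of HSPD1 and HSPA8 overlapped, as did those of HSP90B1 and HSPE1, so their order is not fixed by these libraries. The 53 genes together took 1.38% to 1.47% of all FPKM in controls and 1.44% to 1.47% in ZNF207 libraries. The coefficient of variation within a group had a median of 4.42% over members in controls and 4.64% in ZNF207 libraries.

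Libraries within a group differed across many members at once. Overexpression replicate 3 was the highest of the 6 libraries for 25 of the 51 members, and for 13 of the 19 ER, ERAD and sensor genes. Within its group it was highest for 33 of 51, where it was highest for 43.3% of all tested genes. Control replicate 2 was the lowest of the 6 for 24 members, 15 of them among the 27 cytosolic ones. Within its group it was lowest for 27 of 51, where it was lowest for 34.9% of all tested genes. The sum over the HSP70 and HSP110 role had the same 2 libraries at its ends, at 617.1, 541.3 and 632.4 FPKM across the controls and 668.8, 637.8 and 702.7 FPKM in the ZNF207 libraries. With control replicate 2 left out the median log2 change of the tested members was 0.04, and with overexpression replicate 3 left out it was 0.05.

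**Figure D4:**
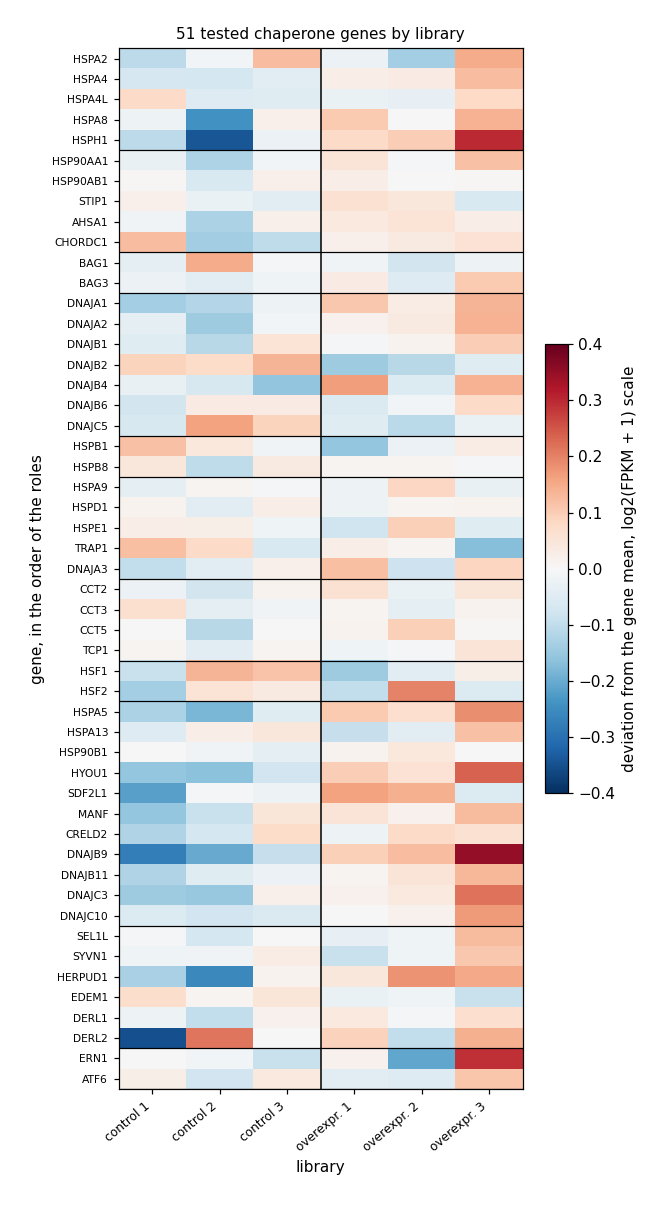
Deviation of each library from the gene's mean over 6 libraries (colour, log2(FPKM + 1) scale, limits at 0.4 below and above) for the 51 tested genes, with lines between roles and between groups. Control replicate 2 is lowest for 24 genes and overexpression replicate 3 is highest for 25.

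The response elements were counted over 300-base windows, from 250 bases before to 50 after the gene start, of 27305 RefSeq genes, in which 51 members had a window. ERSE was found in 3 member promoters (5.88%) and in 0.0806% of all, and ERSE-II in 3 member promoters (5.88%) and in 0.0549% of all. The UPRE core was in 2 member promoters (3.92%) and 0.795% of all, and the HSE of 3 units in 4 (7.84%) and 0.487% of all. The 6 members with an ERSE or ERSE-II had log2 changes of 0.24 (HSPA5), 0.04 (HSP90B1), 0.08 (CRELD2), 0.26 (HYOU1), 0.17 (SDF2L1) and 0.25 (HERPUD1). The 4 with an HSE had 0.16 (HSPA8), 0.08 (CHORDC1), 0.18 (DNAJA1) and 0.01 (DNAJB6). DNAJB9 and HSPH1, the members with the largest log2 changes, had none of the 4 letter patterns in their windows. The motifs were chosen as known elements of the heat shock and ER stress programmes, so their larger shares among members are no test. A match describes the letters of a window and not the binding of a factor.

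**Figure D5:**
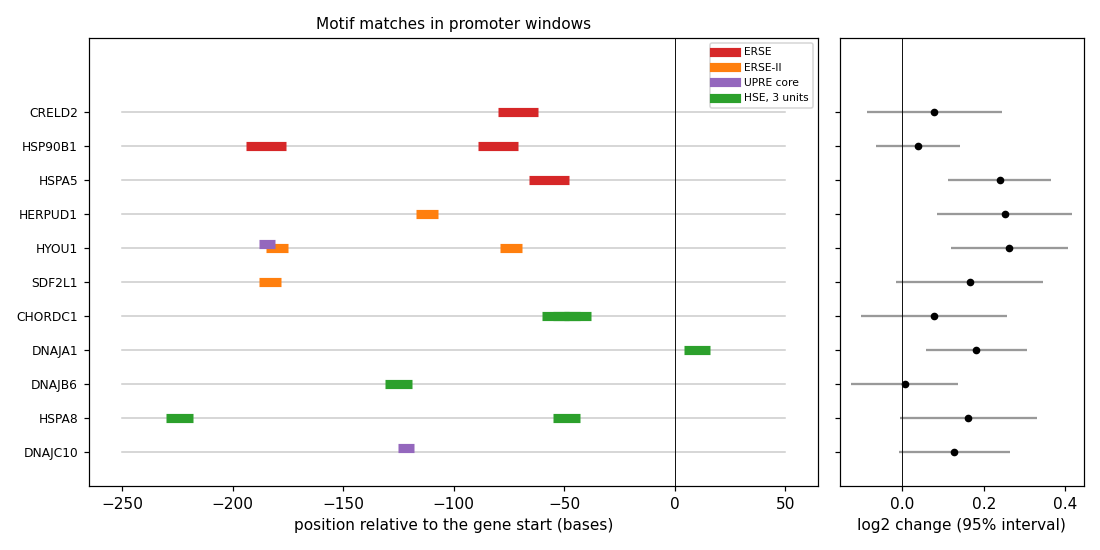
Positions of motif matches relative to the gene start (left, bases) in the 11 member promoters with a match, and the log2 change of each gene with its 95% interval (right). The intervals of HSPA5, HERPUD1, HYOU1 and DNAJA1 lie above 0, while those of the other 7, HSP90B1, CRELD2, SDF2L1, DNAJC10, HSPA8, CHORDC1 and DNAJB6, span it.

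A further 103 genes of the same pathways, kept in 9 lists and also chosen with earlier results known, were set beside the members. Of these, 97 were tested and 0 passed the adjusted threshold, with 4 above and 4 below 0 at an unadjusted p under 0.05 (4.12% each, against 5.08% and 7.03% of all tested genes) and a median log2 change of 0.03. The other ERAD genes had 15 of 17 estimates above 0 (88.2%, against 47.6% of all tested genes), and 3 were higher at an unadjusted p under 0.05 (17.6%, against 5.08%). Those 3 were the lectin ERLEC1 (39.9 ± 3.44 and 47.0 ± 3.997 FPKM, log2 change 0.23, adjusted p = 0.291), the mannosidase EDEM3 (0.20, adjusted p = 0.32) and the ubiquitin-conjugating enzyme UBE2J1 (0.19, adjusted p = 0.298). EDEM3 and UBE2J1 were named after their values were seen. The 16 other ER folding and translocation genes were even, 8 above and 8 below 0, with a median of 0.01 and the smallest p for SEC62 (log2 change 0.09, adjusted p = 0.564). Of 11 other UPR control genes 9 were above 0 (81.8%, against 47.6%), with PPP1R15A, which directs the phosphatase of eIF2α, at 0.20 (adjusted p = 0.393).

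Of 12 other mitochondrial chaperones and proteases, 4 had estimates above 0 (33.3%, against 47.6% of all tested genes) and 3 were lower at an unadjusted p under 0.05 (25.0%, against 7.03%), and the list was not tested against other genes. The matrix protease LONP1 stood at 47.5, 53.3 and 48.5 FPKM across the controls and 40, 42.8 and 38.8 FPKM in the ZNF207 libraries, without overlap (log2 change -0.29, adjusted p = 0.117). The unfoldase CLPX had -0.15 and the exchange factor GRPEL1 had -0.17, both named after their values were seen, with adjusted p-values of 0.348 and 0.349. The remaining 5 lists had medians between -0.02 and 0.04. Their smallest p-values belonged to the J protein DNAJC9 (log2 change -0.11), the exchange factor BAG4 (0.14), the AHSA1-related AHSA2P (-0.24, unadjusted p = 0.0325), the prefoldin subunit PFDN2 (-0.12) and HSBP1 (0.12), a protein that binds HSF1, with adjusted p-values from 0.352 to 0.498.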

How the data were processed

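RNA of 6 MDA-MB-453 libraries was sequenced, 3 per group. The deposited table gives FPKM values made by the authors, 1 column per library. The submitters' processing notes name hg38 and the tools Bowtie2, RSEM 1.3.1 and DESeq2 1.4.5, with their roles, annotation, strand and filters not given in the sources used here. Columns named NC were read as control vector and 207 as ZNF207, with the final digit as the replicate number, which rests on names alone. Duplicate gene names kept the row with the highest mean.

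Whole reads could not be recovered, since among 3020 low genes a common ratio between 2 libraries held for at most 0.331%. Depth is therefore unknown and precision rests on replicate spread. Differences were tested with limma 3.58.1 under R 4.3.3 (mean-variance trend, two-sided, pseudocount 1, minimum FPKM of 1 in 3 libraries, Benjamini-Hochberg over 13185 genes), tested on simulated data. Every adjusted p-value comes from that limma fit, except those given for an alternative, which come from the limma fit of that alternative. The 16 alternatives left out each library in turn, blocked on replicate number, weighted libraries, or changed the pseudocount, filter, scaling or variance model.

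Genes given in every library were the member with the smallest p of each role, 18 members named whatever their change, and the 3 highest and 3 lowest. From each further list, genes past the threshold and the 1 with the smallest p were named. The members and lists were chosen with earlier results of these data known. Motifs were chosen from general knowledge after the values were seen. Gene coordinates are from GENCODE v29 (GRCh38) where the gene lay at least 90% in the listed locus. BLAST 2.17.0 found, for 12 of 53 members, a transcript of another gene at 95% identity or more over at least 200 bases, HSPD1, HSPE1, HSPB1, HSP90AA1 and HSP90AB1 among them, so their values may include reads of copies.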

Additional observations from a re-analysis of the deposited data

How the results depend on the processing

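No member passed the threshold under 15 of the 16 alternatives. The replicate number as a block gave 2, DNAJB9 (adjusted p = 0.0171) and HSPA5 (0.0352), with 145 changed genes in all and 14 members higher at an unadjusted p under 0.05. Same-numbered libraries correlated at 0.136, 0.0088 and 0.174 in their deviations from group means, and not every library correlated best with its own number. Nothing in the labels says that a number marks a shared batch. Correlations this weak cannot tell whether it does, so the blocked fit is given as an alternative. The count of 28 changed genes was 4 without a filter, 64 with a filter at an FPKM of 5, 17 with median-of-ratios scaling, 5 without a variance trend and 7 to 33 with 1 library left out (10 and 15 without control replicates 2 and 3, and 12, 17 and 7 without overexpression replicates 1, 2 and 3), which leaves fewer samples. The 8 higher members were 15 with TPM, 14 with median-of-ratios and 14 with quantile scaling, and 6 to 10 with 1 library left out, and the 1 lower member was 1 to 3, with 3 without control replicate 1. These scalings moved the median of all genes by at most 0.02. The share of all tested genes at an unadjusted p under 0.05 was not counted for any alternative. The members' median stayed between 0.04 and 0.08 over the 16 alternatives, and ZNF207 between 3.51 and 3.63. Among named members only small estimates changed sign. These were ERN1 (-0.0635) and SEL1L (-2e-04) without overexpression replicate 3, HSP90AB1 (-0.0026) without control replicate 2, HSPD1 without control replicate 2 (-0.0179) and without overexpression replicate 2 (-6e-04) and replicate 3 (-0.0024), and ATF6 with array weights (-0.0049), without control replicate 2 (-0.0259) or without overexpression replicate 3 (-0.0436). With 1 library left out, the highest estimates of these 5 were 0.187 (ERN1), 0.079 (SEL1L), 0.0378 (HSP90AB1), 0.0179 (HSPD1) and 0.0378 (ATF6). Causes were not tested. Read depth is unknown, and 3 libraries a group limit the precision.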

Other observations

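Pairs of related chaperone transcripts, chosen after their values were seen, had ratios that separated the groups. The FPKM ratio of HSPA5 to HSP90B1, the HSP70 and HSP90 of the ER lumen, was 0.51, 0.495 and 0.553 in the controls and 0.593, 0.566 and 0.632 in the ZNF207 libraries. The ratio of HSP90AA1 to HSP90AB1, the inducible and the constitutive cytosolic HSP90, was 0.916, 0.898 and 0.918 against 0.956, 0.936 and 1.01. For the ER J proteins DNAJB9 and DNAJB11 it was 1.01, 1.01 and 1.08 against 1.20, 1.19 and 1.32. In none of the 3 ratios did the groups overlap, and none was tested. The numerators HSPA5, HSP90AA1 and DNAJB9 each had groups without overlap on their own, so these ratios are no further evidence. How often other pairs separate the groups was not counted.

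Outside the chaperone list, 11 tested genes had an ERSE in their promoter window, of which 9 had estimates above 0 (81.8%, median log2 change 0.08), and 8 had an ERSE-II, of which 2 did (25.0%, median -0.05). The UPRE core was in 87 such genes, with 60 above 0 (69.0%, median 0.05), and the 3-unit HSE in 21, with 14 above 0 (66.7%, median 0.04). Over all tested genes 47.6% were above 0. The differences between the motif groups were not tested.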
